A study of Mus musculus with 8 samples.

Results

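Accessible chromatin at 10 genes of the myeloid program was examined in multipotent progenitors with and without the B cell transcription factor EBF1. The genes encode the azurophil granule proteins *Mpo*, *Elane*, *Prtn3* and *Ctsg*, lysozyme (*Lyz2*), the growth factor receptors *Csf1r*, *Csf2ra* and *Csf3r*, and the surface proteins *Fcgr3* and *Ly6c2*. Peaks were assigned to their closest gene (GENCODE vM21, mm10), and those of the 10 genes were kept when the peak center lay inside the gene, at most 20 kb before its start or at most 10 kb past its end. This gave 38 of 87642 peaks in MPP3 cells and 32 of 86952 peaks in MPP4 cells, 70 of 174594 in all, and every gene had at least 1 peak in both cell types. The rule uses no measured value. MPP3 and MPP4 cells are bone marrow progenitors without lineage markers, with a bias toward myeloid and lymphoid cells, respectively, and both were sorted as lineage-negative KIT+ SCA1+ CD150- CD48+ cells, with FLT3 as the further marker of the MPP4 gate. The label of the MPP3 gate names no condition on FLT3. *Ebf1* KO mice were C57BL/6 (C57BL/6J in the methods) Ebf1fl/fl mice that carry Tie2Cre (+/cre), and the *Ebf1* WT mice were, by the sample labels, Ebf1fl/fl mice without Cre (Tie2Cre +/+), so that both groups carried the floxed alleles. The design text names *Ebf1* wild-type mice with Tie2Cre as controls instead, and the methods allow for floxed or Cre-carrying littermates. Tie2Cre is active in blood stem cells and in endothelium, so the deletion was not limited to the sorted cells. Each genotype was represented by 2 libraries per cell type, made from 5000 cells each. The MPP3 mice were 8 weeks old (WT) or 8 and 9 weeks old (KO), and the MPP4 mice were 9 weeks (WT) or 8 weeks old (KO), with 1 male among the MPP4 WT mice and females otherwise. Age and genotype can therefore not be told apart in the MPP4 comparison.

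Azurophil granules are the first granules made during neutrophil development, and they are filled in promyelocytes. Myeloperoxidase makes hypochlorous acid from hydrogen peroxide, and neutrophil elastase, proteinase 3 and cathepsin G are related serine proteases that are stored beside it. Lysozyme cleaves bacterial cell walls and is made by granulocytes and macrophages. The receptors for M-CSF (*Csf1r*), GM-CSF (the alpha chain, *Csf2ra*) and G-CSF (*Csf3r*) drive the survival and maturation of macrophages and granulocytes, and many genes of this group are known targets of PU.1, C/EBP, RUNX1 and MYB. In ATAC-seq, the transposase Tn5 inserts adapters where chromatin is open, and the reads over a region report its accessibility and not transcription of the gene.

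Each deposited value is a comparison of the 2 KO with the 2 WT libraries of a cell type. The tables give a log2 fold change (KO over WT), the mean log2 CPM (read counts scaled to the library total) over the 4 libraries, F, the p-value and the false discovery rate (FDR). They hold no value for a single library, so neither the libraries nor their overlap can be shown, and leaving out a library was not possible. The labels give a planned depth of 50000000 reads per library, and the depth reached was not analysed here. The precision of a peak is seen from its SE, which was recovered from the log2 fold change and F. Part of this error is shared across all peaks by the edgeR test. Among the MPP3 member peaks this SE ran from 0.14 to 0.94, among the MPP4 member peaks from 0.11 to 0.73, and it was smallest at the most accessible peaks. Peaks with an FDR under 0.05 were called gained or reduced.

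The sequences of the peaks that the results turn on are shown first, so that the letters under peaks of the granule genes and of *Csf2ra* can be read beside their values. They are the 2 *Csf2ra* peaks, the *Prtn3* peak with the highest accessibility, the *Elane* start peak, the *Ctsg* peak with the smallest p-value in MPP3 cells and the *Mpo* start peak of MPP4 cells. At most 300 bases are given, from the center of the longest stretch outside annotated UTRs, on the strand of the gene and from the mm10 (GRCm38) genome. Capitals mark matches to the letters of EBF1 (TCCCNNGGG or CCCNNGGGA), C/EBP (TTGCNNAA), PU.1 (GAGGAAGT), RUNX (TGTGGT), E-box (CAGCTG or CAGGTG) and MYB (CAACTG or CAACGG), on both strands. The EBF1 forms are reverse complements of each other and so are the same motif when both strands are searched. The MYB word CAACTG has the general E-box form CANNTG but is not among the E-box letters searched.
Csf2ra (MPP3 peak), mm10 chr19:61226095-61226394, minus strand: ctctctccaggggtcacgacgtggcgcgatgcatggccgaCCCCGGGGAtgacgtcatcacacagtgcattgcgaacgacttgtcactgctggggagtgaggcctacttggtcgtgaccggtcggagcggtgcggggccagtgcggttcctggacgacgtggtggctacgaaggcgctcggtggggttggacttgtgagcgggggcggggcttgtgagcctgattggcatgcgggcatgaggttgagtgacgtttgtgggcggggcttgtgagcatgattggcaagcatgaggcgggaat
Csf2ra (MPP3 peak), mm10 chr19:61226962-61227261, minus strand: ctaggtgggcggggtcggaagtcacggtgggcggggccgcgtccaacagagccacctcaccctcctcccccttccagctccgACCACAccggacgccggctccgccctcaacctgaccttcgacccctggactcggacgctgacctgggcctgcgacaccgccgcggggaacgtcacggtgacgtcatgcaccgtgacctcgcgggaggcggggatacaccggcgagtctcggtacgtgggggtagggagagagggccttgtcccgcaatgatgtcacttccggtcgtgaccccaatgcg
Prtn3 (MPP3 peak), mm10 chr10:79877876-79878175, plus strand: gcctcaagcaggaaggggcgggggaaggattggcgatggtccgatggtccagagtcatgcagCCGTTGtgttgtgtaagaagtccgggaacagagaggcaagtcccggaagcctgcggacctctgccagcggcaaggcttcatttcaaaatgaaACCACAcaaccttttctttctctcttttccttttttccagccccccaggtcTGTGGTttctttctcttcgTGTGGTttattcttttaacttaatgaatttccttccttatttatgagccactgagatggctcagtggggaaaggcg
Elane (MPP3 peak), mm10 chr10:79886121-79886246, plus strand: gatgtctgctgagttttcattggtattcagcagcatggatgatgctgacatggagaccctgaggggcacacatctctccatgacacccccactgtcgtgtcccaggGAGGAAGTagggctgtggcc
Ctsg (MPP3 peak), mm10 chr14:56102575-56102747, minus strand: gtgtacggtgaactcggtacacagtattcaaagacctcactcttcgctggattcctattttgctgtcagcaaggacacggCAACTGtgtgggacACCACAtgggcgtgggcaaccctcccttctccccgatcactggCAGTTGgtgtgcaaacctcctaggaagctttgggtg
Mpo (MPP4 peak), mm10 chr11:87793310-87793580, plus strand: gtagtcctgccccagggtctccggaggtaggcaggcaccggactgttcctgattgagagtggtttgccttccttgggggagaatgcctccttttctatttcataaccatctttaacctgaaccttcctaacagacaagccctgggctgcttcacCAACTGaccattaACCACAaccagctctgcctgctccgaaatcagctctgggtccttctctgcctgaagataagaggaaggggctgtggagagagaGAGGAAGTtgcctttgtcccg
The window in the gained *Csf2ra* peak had 1 EBF1 match and no match to the other 5 motifs, and the neighboring *Csf2ra* window had a single RUNX match. The *Prtn3* window held 3 RUNX matches and a MYB match. Upstream of the *Elane* start the PU.1 letters began at position 107 of the window, counted from its first base. The *Ctsg* window held 2 MYB matches and a RUNX match, and the *Mpo* window a PU.1, a RUNX and a MYB match. The gained *Csf2ra* peak as a whole also held a RUNX and an E-box match outside the window. A match is a description of the letters and not evidence of binding.

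In MPP3 cells, 1 of the 38 peaks passed an FDR of 0.05, and it was gained in *Ebf1* KO cells. It lies in *Csf2ra*. Of all MPP3 peaks, 0.0559% were gained and 0.468% were reduced, and none of the 38 peaks was reduced (also none at an unadjusted p-value under 0.05). Most peaks of the 10 genes nevertheless had a positive log2 fold change. It was above 0 at 28 of 38 peaks (73.7%), with a median of 0.25, against 49.6% and a median of -0.0050 among all MPP3 peaks. An unadjusted p-value under 0.05 was reached by 8 of the 38 peaks (21.1%), all of them above 0, against 6.94% of all MPP3 peaks. These 8 were 3 *Prtn3*, 2 *Ctsg*, both *Csf2ra* and 1 *Csf1r* peak. In MPP4 cells, none of the 32 peaks was gained or reduced, where 0.209% and 0.118% of all MPP4 peaks were. Of the 32 peaks, 20 (62.5%) were above 0, with a median of 0.13, against 52.6% and a median of 0.027 among all MPP4 peaks. At a mean log2 CPM of at least 3 the medians were 0.39 in MPP3 and 0.056 in MPP4 cells (7 of 12 above 0), and with every peak in a member window the MPP4 median was 0.071 (31 of 53). An unadjusted p-value under 0.05 was found at 2 peaks (6.25%), the *Mpo* start peak above 0 and a *Fcgr3* peak below 0, against 9.60% of all MPP4 peaks. Peaks of a gene are neighbors and are not replicates, so these counts and medians describe the peaks and were not tested.

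**Figure D1:**
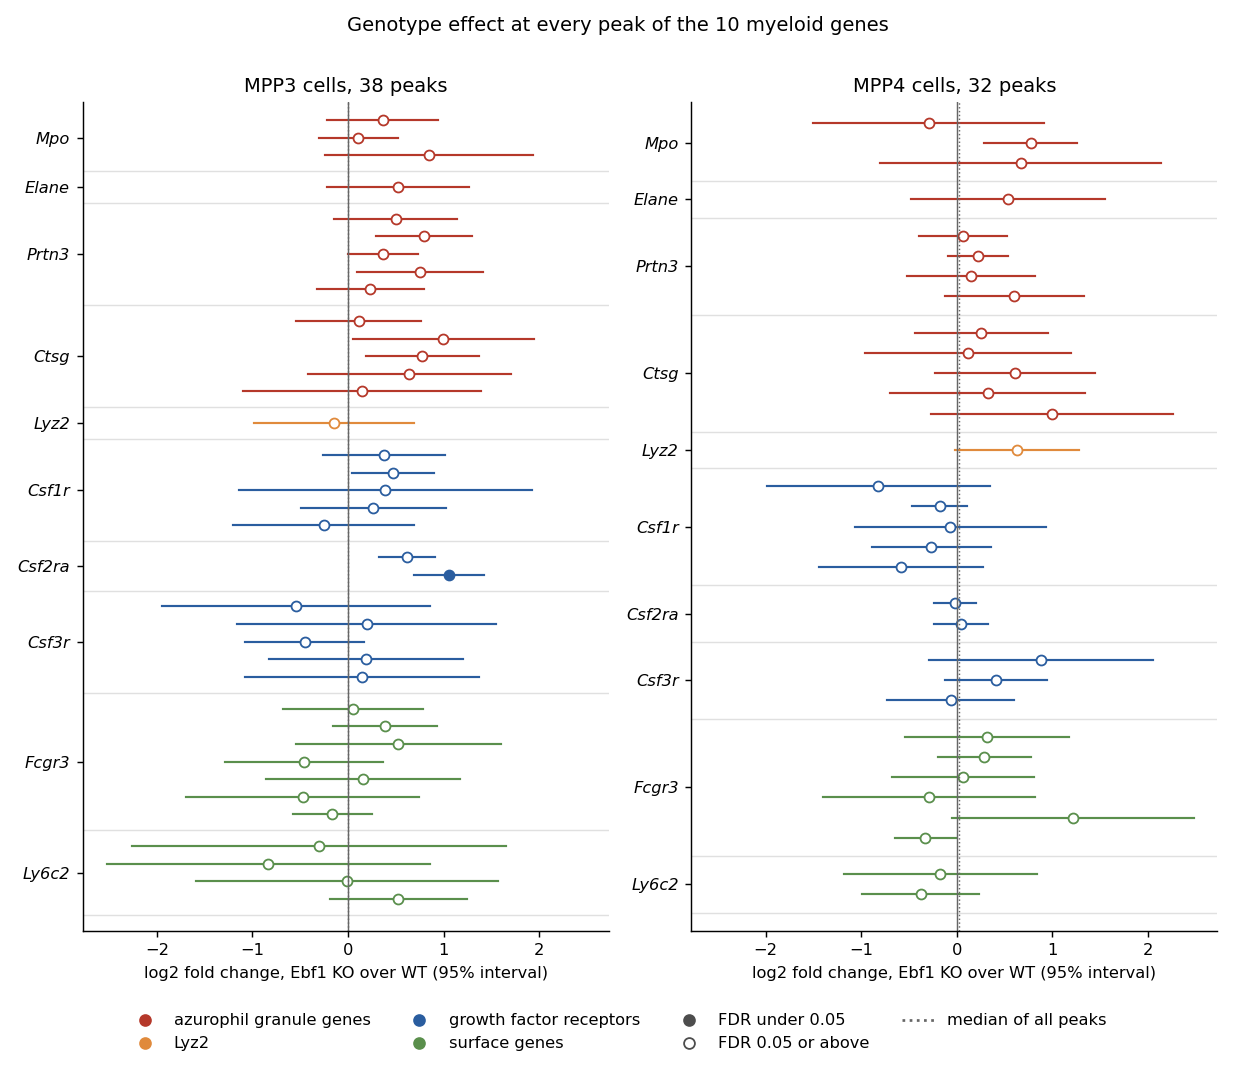
Deposited log2 fold change (KO over WT, x axis) of all 38 MPP3 and 32 MPP4 peaks of the 10 genes, ordered along each gene, with 95% intervals (lines), a zero line and the median of all peaks (dotted). The 1 filled point is the gained *Csf2ra* peak, and all 14 peaks of the 4 azurophil granule genes lie above 0 in MPP3 cells.

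Most peaks of the 4 azurophil granule genes shared their direction. All 14 of their MPP3 peaks had a log2 fold change above 0, with a median of 0.51 and a range from 0.11 to 1.00. None passed an FDR of 0.05, and 5 (35.7%) reached an unadjusted p-value under 0.05, against 6.94% of all MPP3 peaks. After centering by GC content and level, the MPP3 start peak of *Mpo* turned to -0.0084. Among the MPP4 peaks, 12 of 13 peaks were above 0 with a median of 0.32, again with none called. An unadjusted p-value under 0.05 was found at 1 of them (7.69%), against 9.60% of all MPP4 peaks. Of the 10 MPP3 peaks with a mean log2 CPM of at least 3, where the errors are smaller, all 10 were above 0 with a median of 0.43, while 49.2% of all MPP3 peaks at that level were above 0. In MPP4 cells only 3 of the 13 granule peaks, from 2 genes, reached that level, and they were above 0 with a median of 0.22.

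*Prtn3* encodes proteinase 3 and spans 79874476 to 79883174 on the plus strand of chromosome 10 (ENSMUSG00000057729.12). It had 5 MPP3 peaks, all above 0, and 3 of them reached an unadjusted p-value under 0.05. An intron peak upstream of the most accessible one had the smallest p-value of the granule genes in MPP3 cells, with a log2 fold change of 0.80 (SE 0.24, FDR 0.228). Its MPP4 counterpart had 0.06 (SE 0.23). The *Prtn3* peak with the highest level, from 79877734 to 79878318, had log2 fold changes of 0.37 (SE 0.17) in MPP3 and 0.22 (SE 0.16) in MPP4 cells. After centering by GC content and level these were 0.24 and 0.30, so the order of the cell types turned. This most accessible peak is the one whose sequence is printed above. Downstream of *Prtn3*, between this gene and *Elane*, the peak from 79883727 to 79883969 had 0.75 (SE 0.32) in MPP3 and 0.15 (SE 0.33, or 0.09 after centering) in MPP4 cells. The next peak, from 79884465 to 79884836, had 0.24 (SE 0.27) in MPP3 and 0.60 (SE 0.36, or 0.39 after centering) in MPP4 cells. A peak over the first annotated start, 79874311 to 79874665, was found only in the MPP3 table, with 0.50 (SE 0.31). The order of the peaks by log2 fold change was thus not the same in both cell types.

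*Ctsg* encodes cathepsin G and lies on the minus strand of chromosome 14, from 56099881 to 56102574 (ENSMUSG00000040314.2). All 5 of its peaks were above 0 in both cell types. The start peak (56102363 to 56102747) reached 0.78 in MPP3 cells (SE 0.28, FDR 0.440) and 0.61 in MPP4 cells (SE 0.42). The largest log2 fold change among the MPP3 granule peaks, 1.00, was measured -2656 bp from the start (negative distances are upstream), at 56105131 to 56105330, with an SE of 0.45 at a mean log2 CPM of 2.29. Its MPP4 value was 0.12 (SE 0.54). The error of this peak was wide in both cell types. The upstream peak next to it, from 56105493 to 56105875, had 0.11 (SE 0.31) in MPP3 and 0.26 (SE 0.34, or 0.40 after centering) in MPP4 cells. Downstream, the peak from 56099011 to 56099255 had 0.64 (SE 0.51) in MPP3 and 0.32 (SE 0.51) in MPP4 cells, and 85.7% of the MPP3 peak is repeat sequence. No annotated start of *Ctsg* lies near it. The far downstream peak (56093388 to 56093664) had 0.15 (SE 0.60) in MPP3 and 1.00 (SE 0.63) in MPP4 cells. Peaks with values near 1 were thus the weakly accessible ones with wide errors.

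*Mpo*, the gene of myeloperoxidase, spans 87793581 to 87804413 on the plus strand of chromosome 11 (ENSMUSG00000009350.13) and had 3 peaks in each cell type. The MPP4 start peak (87793310 to 87793836) had the smallest p-value of all 32 MPP4 member peaks, with a log2 fold change of 0.78 (SE 0.24, FDR 0.178), which is 1.71-fold with a 95% interval from 1.22 to 2.40. The MPP3 start peak (87793348 to 87794228) was wider and more accessible, and it had 0.11 (SE 0.20), or -0.0084 after centering by GC content and level. The upstream peak, at -3288 bp from the start in MPP3 cells, had 0.36 (SE 0.28) in MPP3 and -0.29 (SE 0.60, or -0.47 after centering) in MPP4 cells. An intronic peak near 87800379 had 0.85 (SE 0.52) in MPP3 and 0.67 (SE 0.73) in MPP4 cells. Of the 31-base words of that intronic peak in MPP3 cells, 17.0% occur elsewhere in the genome, and the effect of these copies on its values was not tested.

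*Elane*, the gene of neutrophil elastase, lies next to *Prtn3* on chromosome 10 (79886247 to 79888215, plus strand, ENSMUSG00000020125.7). Its only peak covers the start. The log2 fold change there was 0.53 in MPP3 (SE 0.36) and 0.54 in MPP4 cells (SE 0.50, FDR 0.812). After centering by GC content and level the values were 0.54 and 0.22, and the intervals of the uncentered values include 0. *Lyz2* (chromosome 10, 117277331 to 117282321, minus strand, ENSMUSG00000069516.8) also had a single peak, over its start. There the log2 fold change was -0.14 in MPP3 (SE 0.40) and 0.63 in MPP4 cells (SE 0.32, FDR 0.545). *Lyz1*, a near-copy of *Lyz2*, lies beside it, and 21.0% of the 31-base words of the MPP3 *Lyz2* peak occur elsewhere in the genome.

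**Figure D2:**
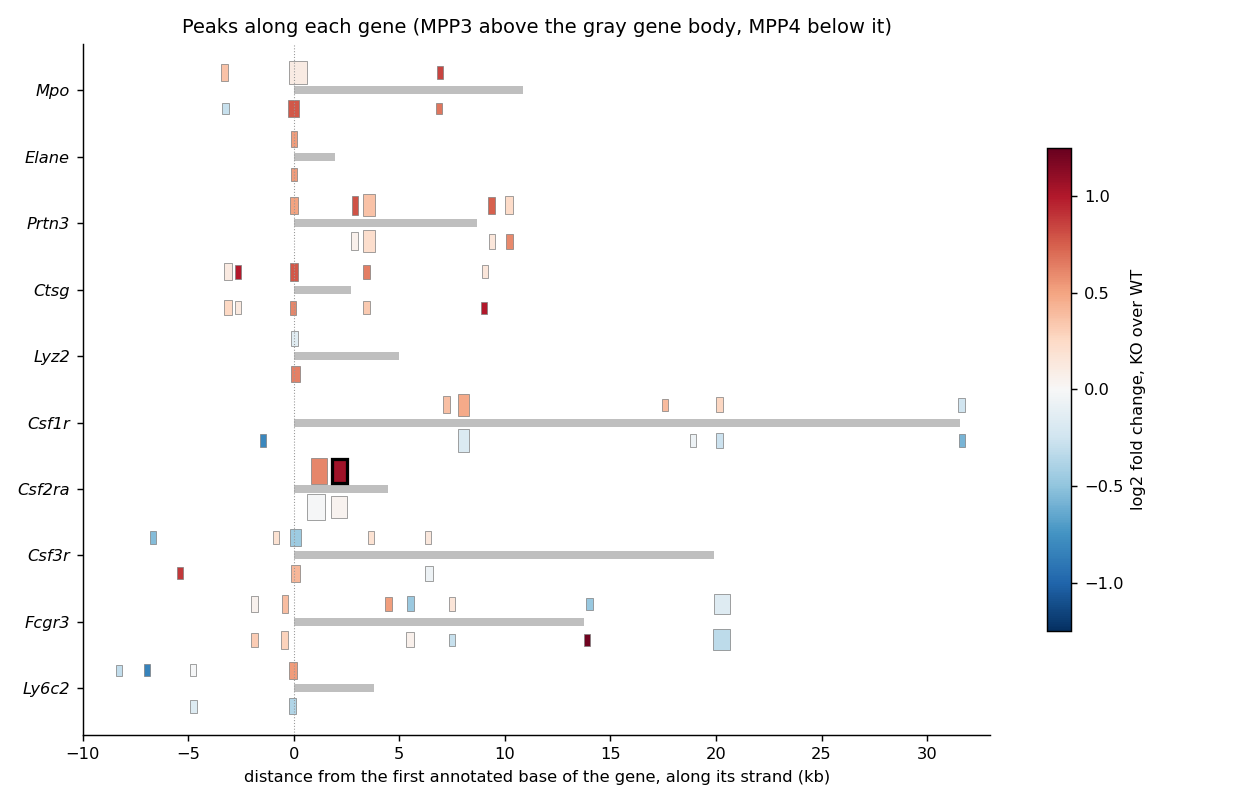
Peaks of each gene by the distance of their center from the first annotated base of the gene (x axis, kb along the gene's strand), with MPP3 peaks above and MPP4 peaks below the gray gene body. Color gives the log2 fold change (KO over WT), box height grows with the mean log2 CPM, boxes are as wide as the peak but at least 0.3 kb, and the thick outline marks the gained *Csf2ra* peak, inside the gene 2184 bp from its first base.

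*Csf2ra* encodes the alpha chain of the GM-CSF receptor, which binds the cytokine and signals together with the common beta chain. The gene lies on the minus strand of chromosome 19 from 61223957 to 61228429 (ENSMUSG00000059326.7), and both of its peaks lie inside the gene, within 1 kb of internal transcript starts. The peak from 61225886 to 61226604, centered on a coding exon 438 bp from the nearest annotated start, was gained in *Ebf1* KO MPP3 cells. Its log2 fold change was 1.06 (SE 0.17, FDR 0.00397), a 2.08-fold rise with a 95% interval from 1.62 to 2.68, and it ranked 142 of all MPP3 peaks by p-value. The neighboring peak from 61226859 to 61227601 had 0.61 (SE 0.14, FDR 0.0536) and missed the threshold. It was called when values were centered by GC content and level (adjusted p = 0.0421). In MPP4 cells the values were 0.05 (SE 0.14) and -0.02 (SE 0.11), with FDR of 0.956 and 0.979. Errors were small in both cell types, and the 95% intervals of the MPP4 values ran from -0.23 to 0.33 and from -0.24 to 0.20. The *Csf2ra* peaks were also highly accessible, with a mean log2 CPM of 6.35 and 7.60 in MPP3 and of 5.93 and 7.21 in MPP4 cells. None of the 31-base words of the 4 peaks occurs elsewhere in the genome, and their GC content was between 63.7% and 66.8%.

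*Csf1r* encodes the receptor for M-CSF and interleukin 34 (chromosome 18, 61100598 to 61132149, plus strand, ENSMUSG00000024621.16). No peak lay within 1 kb of an annotated start of this gene. Its most accessible peak, from 61108386 to 61108893, lies in an intron, 2761 bp after the nearest annotated start. There the log2 fold change was 0.47 in MPP3 cells (SE 0.21, FDR 0.647) and -0.18 in MPP4 cells (SE 0.15, FDR 0.764). The other 4 MPP3 peaks had values from -0.25 to 0.39, and the 5 MPP4 peaks had values from -0.82 to -0.07, all below 0. The MPP3 peak at 61107684 to 61107964, upstream of the most accessible one, had 0.38 (SE 0.30) and no MPP4 counterpart. The MPP4 peak with the lowest value, -0.82 (SE 0.58), lies at -1444 bp from the start of the gene and had no MPP3 counterpart.

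*Csf3r* encodes the receptor for G-CSF, the main growth factor of neutrophils (chromosome 4, 126024550 to 126044440, plus strand, ENSMUSG00000028859.14). Its start peak (126024388 to 126024877) reached -0.45 in MPP3 (SE 0.30, FDR 0.892) and 0.41 in MPP4 cells (SE 0.27, FDR 0.665). Its other 4 MPP3 peaks lay between -0.55 and 0.19 at a mean log2 CPM of at most 2.15, with SEs of 0.49 to 0.67. In MPP4 cells, the upstream peak from 126019044 to 126019296 had 0.88 (SE 0.58) and the intronic peak near 126030780 had -0.06 (SE 0.33). Of the 3 receptor genes, *Csf2ra* was thus the only one with a called peak, and over all 12 MPP3 and 10 MPP4 receptor peaks the medians were 0.23 and -0.06.

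*Fcgr3* encodes a low-affinity Fc receptor for IgG (CD16) and lies on the minus strand of chromosome 1 from 171051174 to 171064935 (ENSMUSG00000059498.13). Its 7 MPP3 peaks had log2 fold changes from -0.47 to 0.53 with a median of 0.05, and the smallest p-value was 0.153. The 6 MPP4 peaks ran from -0.33 to 1.21. The most accessible of them, 171044288 to 171045065, lies downstream of *Fcgr3* and had -0.33 in MPP4 cells (SE 0.16, FDR 0.493) and -0.16 in MPP3 cells (SE 0.20). At the internal starts, the peak from 171057320 to 171057583 had 0.16 (SE 0.49) in MPP3 and -0.29 (SE 0.55) in MPP4 cells. The one from 171059252 to 171059588 had -0.46 (SE 0.39) and 0.06 (SE 0.37). The value of 1.21 was measured at 171050918 to 171051149, at a mean log2 CPM of 1.38 (SE 0.63, FDR 0.550). The upstream peaks of *Fcgr3* have close copies in the genome. Of the 31-base words of the peak from 171065253 to 171065481, at -432 bp, 85.4% occur elsewhere. Its log2 fold changes were 0.39 (SE 0.26) in MPP3 and 0.29 (SE 0.24) in MPP4 cells, and the effect of the copies on them was not tested. A further MPP3 peak inside the gene, within 1 kb of its first base (171064384 to 171064752), was looked up after the values were seen. It was assigned to the microRNA gene *Mir6546* and was not a member, so the *Fcgr3* counts and medians leave it out. Its log2 fold changes were 0.65 (SE 0.19, FDR 0.207) in MPP3 and 0.43 (SE 0.20, FDR 0.457) in MPP4 cells. These FDR values are below the smallest of the *Fcgr3* member peaks in each cell type (0.899 and 0.493).

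*Ly6c2* encodes a form of the monocyte surface antigen Ly6C and belongs to a family of related genes on chromosome 15 (75108158 to 75111970, minus strand, ENSMUSG00000022584.14). The start peak (75111838 to 75112197) reached 0.53 in MPP3 (SE 0.35, FDR 0.892) and -0.38 in MPP4 cells (SE 0.30, FDR 0.762). Of its 31-base words, 52.7% occur elsewhere in the genome. The other 3 MPP3 peaks, all upstream, were below 0 (-0.84 to -0.01) with SEs of at least 0.76, and the other MPP4 peak had -0.17 (SE 0.50). Over both surface genes, 5 of 11 MPP3 and 4 of 8 MPP4 peaks were above 0, with medians of -0.01 and -0.05.

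Peaks of both tables that overlap by 1 bp or more were taken as the same position. Of all MPP3 peaks, 75.7% had an MPP4 peak at the same position. Among the 38 member peaks 29 had one, a share near this background, and 9 did not, of which 3 were in *Csf3r*, 2 each in *Csf1r* and *Ly6c2* and 1 each in *Prtn3* and *Fcgr3*. At 2 of the 29 matched positions the effect of the genotype differed between the cell types (normal approximation, adjusted p under 0.05), against 1.21% of all 66324 matched positions. Both were in *Csf2ra*. At the gained peak the log2 fold change was higher by 1.01 in MPP3 than in MPP4 cells (SE 0.22, 95% interval 0.57 to 1.45, adjusted p = 0.00222), and at its neighbor it was higher by 0.63 (SE 0.18, 0.28 to 0.98, adjusted p = 0.0385). With a t distribution at the smaller residual degrees of freedom, the adjusted p-values were 0.0689 and 0.199 and neither position passed, so the calls rest on the normal approximation. An unadjusted p-value under 0.05 was found at 8 of 29 positions (27.6%), 5 of them with the higher value in MPP3 cells, against 10.9% of all matched positions. Beside *Csf2ra* these were the *Csf1r* intron peak (higher by 0.65 in MPP3 cells, SE 0.25, adjusted p = 0.241), the first *Prtn3* intron peak (0.73, SE 0.33, adjusted p = 0.366) and the *Ly6c2* start peak (0.90, SE 0.46, adjusted p = 0.457). Lower in MPP3 cells were the start peaks of *Mpo* (-0.67, SE 0.31, adjusted p = 0.387) and *Csf3r* (-0.87, SE 0.40, adjusted p = 0.378) and the *Fcgr3* peak near 171050797 (-1.69, SE 0.86, adjusted p = 0.459).

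Both cell types gave a log2 fold change of the same sign at 18 of the 29 positions (62.1%), against 47.7% of all matched positions. The gene groups differed in this count. Among the granule genes it was 12 of 13 positions, with the upstream *Mpo* peak as the exception, among the receptors 2 of 7 and among the surface genes 4 of 8. After centering by GC content and level, the *Mpo* start peak also had opposite signs (-0.0084 in MPP3 and 0.78 in MPP4 cells). *Lyz2* had opposite signs. The receptor positions also had the higher value in MPP3 cells at 6 of 7 positions, with the *Csf3r* start peak as the exception. Over all 10 genes this held at 19 of 29 positions, and over all matched positions at 47.0%. These counts were not tested.

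**Figure D3:**
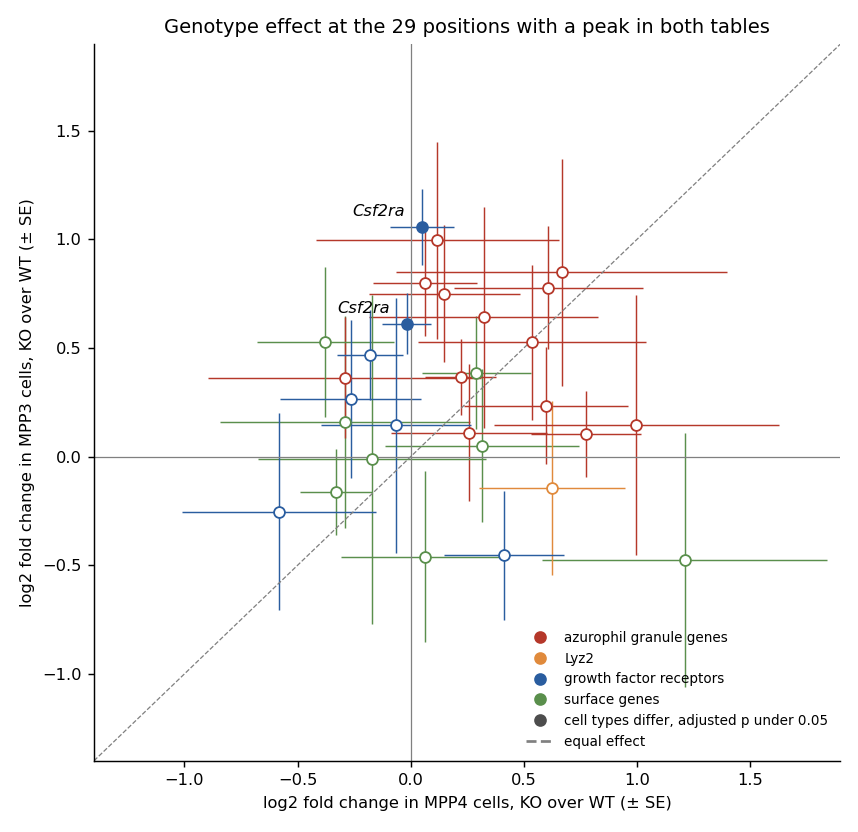
Deposited log2 fold change (KO over WT) in MPP3 cells (y axis) against MPP4 cells (x axis) at the 29 matched positions, with the SE of each as bars and equal effects on the dashed line. The filled points are the 2 *Csf2ra* peaks, and 12 of the 13 red points of the granule genes lie in the upper right part, where both values are above 0.

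The level of accessibility itself placed the genes in another order. By the mean log2 CPM of their most accessible MPP3 peak, *Csf2ra* (7.60) was followed by *Mpo* (5.98), *Prtn3* (5.80), *Csf1r* (5.66), *Fcgr3* (5.22), *Csf3r* (3.99), *Ctsg* (3.83), *Ly6c2* (3.38), *Elane* (3.01) and *Lyz2* (2.81). The deposited level has no error, so neighbors in this order cannot be called different. Per 100 bp of peak length, the highest log2 levels in MPP3 cells were 4.71 and 3.50 at *Csf2ra*, followed by the intron peak of *Csf1r*, with 3.25 and 3.14 at the *Prtn3* intron peaks. In MPP4 cells, the *Mpo* start peak had a mean log2 CPM of 3.95, and the most accessible peaks were those of *Csf2ra* (7.21), *Csf1r* (6.06 in its intron) and *Prtn3* (5.55). The tables were normalized separately, and the levels stand side by side without a test. At the 13 matched granule positions the MPP3 level was higher at all 13, by 0.25 to 2.48 on the log2 scale, whereas it was higher at 47.0% of all matched positions. For *Mpo* the differences were 1.01, 2.02 and 2.48, each above the 95th percentile of all matched positions (0.88). *Mpo* peaks also differ in width, and per 100 bp the start peak had a level of 2.84 in the MPP3 table and of 1.55 in the MPP4 table. At the receptor genes 4 of 7 positions had the higher level in MPP3 cells, with differences from -1.09 to 0.42.

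**Figure D4:**
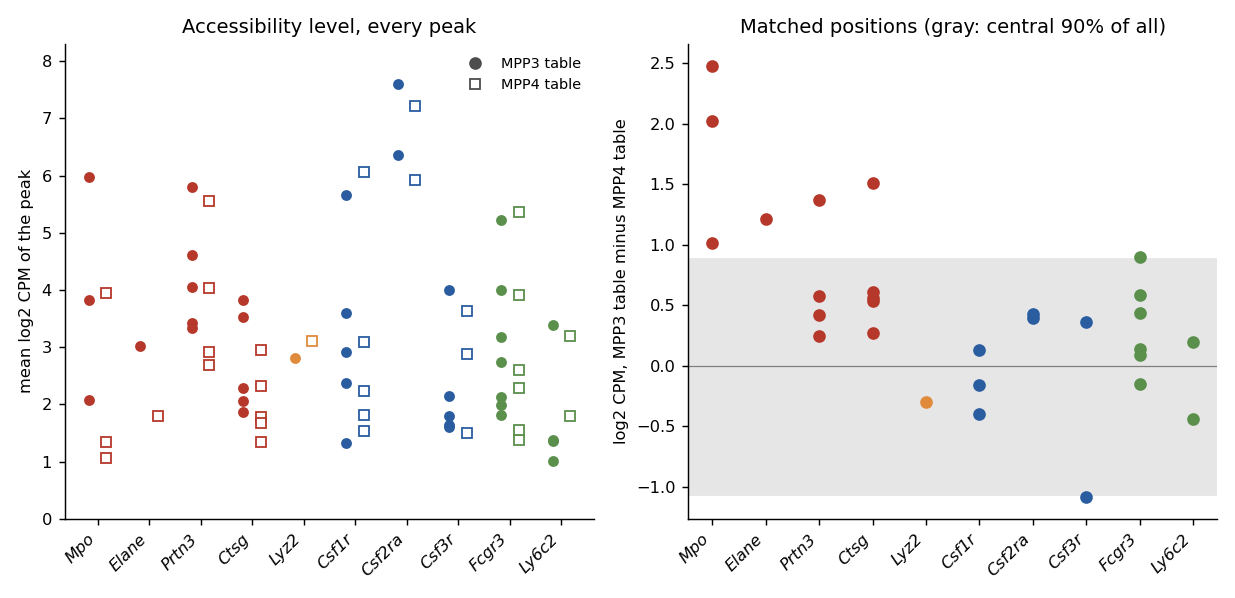
Left, mean log2 CPM (y axis) of every peak of each gene in the MPP3 table (filled circles) and the MPP4 table (open squares). Right, the MPP3 level minus the MPP4 level at matched positions, where gray spans the 5th to the 95th percentile of all matched positions (-1.07 to 0.88) and 6 of the 13 granule positions lie above it.

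Other genes of these pathways were counted from lists that do not contain the 10 genes. Further granule and effector genes, such as *Ctsc*, which activates the granule proteases, and the NADPH oxidase subunits *Cyba* and *Ncf1*, had 70 MPP3 peaks and 59 MPP4 peaks. None was called in either cell type. An unadjusted p-value under 0.05 was reached by 5 MPP3 peaks (7.14%, all below 0, against 6.94% of all MPP3 peaks). In MPP4 cells 3 peaks reached it (5.08%, against 9.60% of all MPP4 peaks). Of the 70 MPP3 peaks, 29 were above 0 (41.4%, against 49.6% of all MPP3 peaks), with a median of -0.06. Of the 59 MPP4 peaks 32 were (54.2%, against 52.6% of all MPP4 peaks), with a median of 0.06. Further cytokine and Fc receptor genes had 107 MPP3 peaks with none called and a median of -0.04. An unadjusted p under 0.05 was reached by 9 of them (8.41%, against 6.94% of all MPP3 peaks). Of their 111 MPP4 peaks, 1 was reduced, at *Fcgr4*, an Fc receptor gene next to *Fcgr3* (171037011 to 171037243 on chromosome 1, log2 fold change -1.42, SE 0.34, FDR 0.0437), where 0.118% of all MPP4 peaks were reduced. An unadjusted p under 0.05 was reached by 17 of the 111 (15.3%, 7 above and 10 below 0), against 9.60% of all MPP4 peaks. *Csf2rb*, the gene of the common beta chain that pairs with CSF2RA, had a median log2 fold change of 0.22 over 5 MPP3 peaks, and *Csf2rb2*, the gene of the beta chain specific to interleukin 3, had 0.06 over 3. Peaks of 10 regulators of these genes, among them *Cebpa*, *Spi1* and *Runx1*, numbered 72 in each cell type, with none called and medians of -0.06 and 0.01. An unadjusted p under 0.05 was reached by 9 of the MPP3 peaks (12.5%, 6 above and 3 below 0), against 6.94% of all MPP3 peaks. In MPP4 cells 7 peaks reached it (9.72%, 6 above and 1 below 0), against 9.60% of all MPP4 peaks.

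B lineage genes were listed for contrast. Of their 38 MPP3 peaks, 7 were reduced in *Ebf1* KO cells, where 0.468% of all MPP3 peaks were, and the median was -0.71. Of 28 MPP4 peaks none was called, where 0.209% of all MPP4 peaks were gained and 0.118% reduced. An unadjusted p under 0.05 was reached by 18 MPP3 peaks (47.4%, all below 0, against 6.94% of all) and 1 MPP4 peak (3.57% against 9.60%). The reduced peaks included those at *Igll1* (-3.83, SE 0.43), which encodes a part of the pre-B cell receptor, at *Blnk* (-3.47, SE 0.77), *Pou2af1* (-3.26, SE 0.46), *Cd79b* (-3.25, SE 0.65, and -2.80, SE 0.54) and *Cd79a* (-2.46, SE 0.46). Many of these genes are known targets of EBF1.

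The labelled cell types were checked against markers of the sort. *Flt3*, which marks MPP4 cells, had a highest mean log2 CPM of 7.01 in MPP4 and 5.92 in MPP3 cells, and *Kit* had 5.63 and 5.54. *Ly6a*, the gene of SCA1, had a single weak peak in each table (1.36 in MPP3 and 1.15 in MPP4 cells). *Slamf1*, the gene of CD150, by whose absence the cells were sorted, had 3 peaks in each table, up to 3.59 in MPP3 and 4.21 in MPP4 cells. Markers of other cells were looked at in the same way, since changed shares of cells and changed chromatin within cells cannot be told apart in bulk libraries. Of the 7 markers of mature granulocytes and monocytes, 5 had peaks in MPP3 cells and *Ly6g* and *S100a9* had none. The 13 MPP3 peaks had a median of 0.01 (log2) with 7 above 0 and none called, and no unadjusted p-value was under 0.05. The 15 MPP4 peaks, without *Ly6g*, *S100a8* and *Camp*, had a median of -0.29 with 5 above 0 and none called. Of these, 2 were at an unadjusted p under 0.05 (13.3%, against 9.60% of all MPP4 peaks). Their summed level was 129 CPM in the MPP3 and 178 CPM in the MPP4 table, and *Ltf*, with 48.1 and 84.1 CPM, gave the most. Of these 7 markers, *S100a8*, *S100a9*, *Ltf*, *Camp* and *Itgam* are also in the list of further granule genes. Erythroid and megakaryocyte markers had 8 MPP3 and 9 MPP4 peaks with a summed level of 207 and 154 CPM, most of it from *Itga2b* (122 and 90.1 CPM). *Gata1* could have no peak, since it lies on the X chromosome and the analysed peaks lie on the 19 autosomes. T cell markers, without a *Cd8a* peak in either table, had 8 and 12 peaks with 103 and 128 CPM, most of it from *Cd3d* (70.7 and 76.9 CPM). None of these peaks was called in either cell type. In MPP4 cells 1 T cell marker peak was at an unadjusted p under 0.05 (8.33%, against 9.60% of all MPP4 peaks). B cell markers had 3 reduced peaks of 11 in MPP3 cells, where 0.468% of all MPP3 peaks were reduced. Among the 3 were those at *Ms4a1* (-3.37, SE 0.66) and *Cd79a* (above). The summed level of the 11 peaks was 78.5 CPM, with *Pax5* (44.3 CPM) as the most accessible gene. Of the 10 MPP4 peaks of B cell markers, with 52.1 CPM, none was called (1, or 10%, at an unadjusted p under 0.05, against 9.60% of all MPP4 peaks). The part of all these markers in the values of the 10 genes was not tested.

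Consensus letters were counted in all member peaks. In MPP3 cells, C/EBP letters were present in 9 of 38 peaks (23.7%, against 11.7% of all MPP3 peaks), PU.1 letters in 7 (18.4% against 9.56%), RUNX letters in 18 (47.4% against 30.8%) and MYB letters in 15 (39.5% against 18.8%). E-box letters (42.1% against 38.7%) and EBF1 letters (7.89% against 7.46%) were about as frequent as in all peaks. In MPP4 cells, the shares were 18.8% for C/EBP, 18.8% for PU.1, 62.5% for RUNX and 43.8% for MYB, against 11.7%, 10.9%, 32.98% and 19.1% of all MPP4 peaks. EBF1 letters were found in 2 of the 32 MPP4 peaks (6.25% against 6.49% of all MPP4 peaks), and E-box letters in 34.4% against 40.0%. The median length of the member peaks, 277.5 bp in MPP3 and 265.5 bp in MPP4 cells, was close to that of all peaks (273 and 285 bp). Within the central 150 bp, RUNX letters were found in 21.1% of the MPP3 member peaks and 20.4% of all MPP3 peaks, whereas C/EBP letters were in 18.4% against 6.2% and MYB letters in 23.7% against 10.1%. In MPP4 cells the central RUNX share was 37.5% against 22.0% of all MPP4 peaks.

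**Figure D5:**
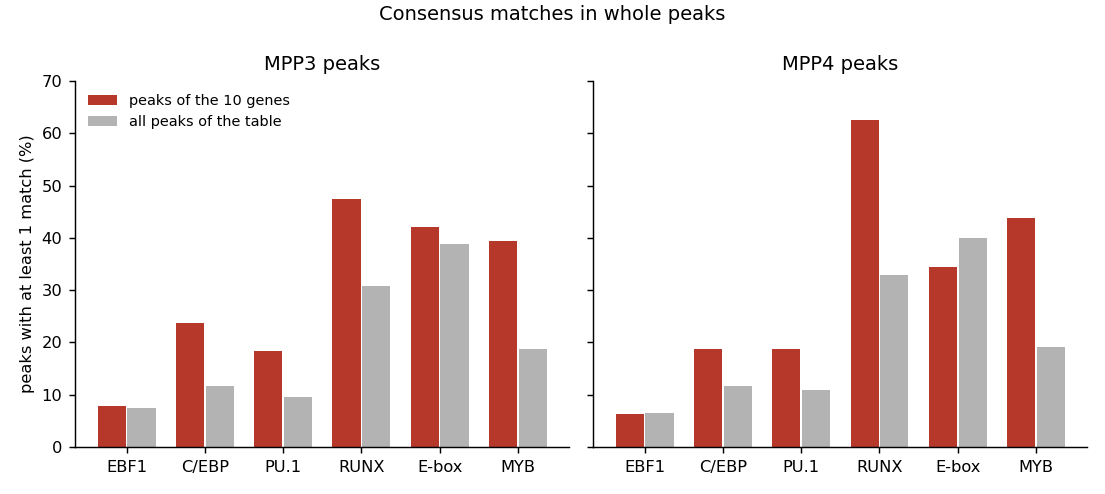
Share of peaks with at least 1 match to the consensus letters (y axis, percent) among the peaks of the 10 genes (red) and among all peaks of the table (gray), in MPP3 (left) and MPP4 cells (right). RUNX letters are in 47.4% of the MPP3 and 62.5% of the MPP4 member peaks, and EBF1 letters are as rare as in all peaks.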

How the data were processed

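ATAC-seq libraries of 5000 cells (2 per genotype in each cell type) were compared. Per the methods and the submitters' processing notes, the authors trimmed reads with cutadapt 2.10 and aligned them to mm10. Duplicates and alignments of low mapping quality were removed. The authors used deepTools 3.3.2 to keep only fragments of up to 150 bp, and called peaks with MACS2 2.2.7.1 with a shift and extension around the Tn5 cut. The fragment filter keeps nucleosome-free DNA, so signal from longer fragments does not enter the values. Peaks were merged with bedtools within a cell type, and the genotypes were compared by the authors with edgeR 3.32.0 (R 4.0.3, quasi-likelihood F test). The authors deposited the log2 fold change and the mean log2 CPM of each peak, the F statistic, which is a score without a fixed range, and the p-value with its Benjamini-Hochberg FDR over all peaks. These columns hold the authors' own comparison and no value per library. They were used as deposited, so the test was not repeated. The design text calls the libraries biological replicates, and the labels do not tie them to single mice, so the p-values measure the spread between these libraries.

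From these values, the SE was taken as the size of the log2 fold change over the root of F, and 95% intervals used a t distribution with the residual degrees of freedom that F and p imply (20.1 for the MPP3 and 48.6 for the MPP4 table). Genes were assigned by the closest transcript of GENCODE vM21. Differences between cell types were divided by the root of the summed squared SEs and adjusted over all 66324 matched positions. Sequence came from the GRCm38 (mm10) genome, and copies were counted as 31-base words found elsewhere in the primary assembly. Calculations were checked on simulated data. For the difference between cell types these had normal errors of known SE, so the check cannot decide between the normal approximation and the t distribution. Alternatives were other gene windows, FDR thresholds of 0.1 and 0.01, a level minimum, centering within bins of GC content and level, another overlap and a t distribution. Named peaks were, for each gene, those at a start, with the highest level or with the smallest p-value, and the called peaks of the lists, of which 1 gene and 1 peak sequence are not reported here. The other peaks of the 10 genes that are named were chosen to complete a gene. The 10 genes, the other gene lists and the tests were chosen with earlier results of these data known. Python 3.11.15 with numpy, pandas, scipy and matplotlib was used.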

Additional observations from a re-analysis of the deposited data

Results flagged for a closer look

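The genotype effect was called different between MPP3 and MPP4 cells at both *Csf2ra* peaks under the normal approximation, but at neither with a t distribution. The log2 fold change (KO over WT) was higher in MPP3 cells by 1.01 at the gained peak from 61225886 to 61226604 (adjusted p = 0.00222) and by 0.63 at the neighboring peak from 61226859 to 61227601 (adjusted p = 0.0385). With values centered by GC content and level, the differences were 1.09 and 0.64 (adjusted p = 0.000718 and 0.0380), and with a t distribution at the smaller residual degrees of freedom the adjusted p-values were 0.0689 and 0.199. The peaks are neighbors in the same gene and are not independent of each other.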

How the results depend on the processing

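No paired analysis was possible because the tables hold no value per library, and for the same reason no library could be left out. With every peak in a member window, also when another gene is closer, 61 MPP3 and 53 MPP4 peaks were members. The count of gained MPP3 peaks was 2 at an FDR under 0.1, 2 after centering by GC content and level and 2 among peaks with a mean log2 CPM of at least 3, where the second *Csf2ra* peak was added (centered log2 fold change 0.64). That level minimum gave member medians of 0.39 (MPP3) and 0.056 (MPP4) on the log2 scale. The number of positions that differ between cell types was 0 with a t distribution at the smaller residual degrees of freedom. The MPP3 start peak of *Mpo* turned to -0.0084 after centering. Centering also moved uncalled values by more than 1.5 times at peaks of *Elane*, *Prtn3*, *Ctsg* and upstream of *Mpo*, as given there, and at peaks of *Fcgr3*, *Csf2ra*, *Csf3r* and *Ly6c2*. At *Fcgr3* the MPP3 values at 171044292 and 171066681 went from -0.16 to -0.28 and from 0.05 to 0.09, and the MPP4 values at 171057295, 171059221, 171065239 and 171066716 from -0.29 to -0.46, from 0.06 to 0.19, from 0.29 to 0.14 and from 0.32 to 0.06. Both MPP4 peaks of *Csf2ra* moved nearer to 0 (0.05 to 0.01 and -0.02 to -0.01). At *Csf3r* the MPP3 value at 126030814 went from 0.15 to 0.22 and the MPP4 value at 126030780 from -0.06 to -0.01, and the MPP3 value at 75116677 near *Ly6c2* turned from -0.01 to 0.01. In the central 150 bp, the shares of MPP3 member peaks with a match were 26.3% for the E-box (22.9% of all MPP3 peaks), 0% for EBF1 (3.53%), 23.7% for MYB (10.1%) and 21.1% for RUNX (20.4%), and those of MPP4 member peaks were 25% for MYB (9.95% of all MPP4 peaks) and 37.5% for RUNX (22.0%). The counts of reduced peaks and of gained MPP4 peaks were 0 under every alternative run. The cause of these changes was not tested, apart from the smaller number of peaks tested under the level minimum. A mean log2 CPM below 3 was found at 19 of 38 MPP3 and 20 of 32 MPP4 peaks, and whether more reads would narrow their errors was not tested.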
